A study of Mus musculus with 10 samples.

Results

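The transcripts described here encode tumour necrosis factor (Tnf), the 5 NF-kappaB subunits (Nfkb1, Nfkb2, Rel, Rela and Relb) and 4 proteins that restrain or tune them (Tnfaip3, Nfkbia, Nfkbie and Nfkbiz). They were taken by symbol from the 46957 loci of each table, and all 10 were found, each at a locus that lists no other gene. The cells were macrophages sorted from tumours of BALB/cJ mice that carried 4T1 cells, a mouse mammary carcinoma line, in the mammary fat pad. In the treated group, 5 samples came from mice given JHU083, a prodrug of the glutamine antagonist 6-diazo-5-oxo-L-norleucine, at 1 mg/kg from day 7 to day 13. The control group held 5 samples from mice given PBS as vehicle, and all tumours were harvested on day 14. The sorted cells were live CD45+ CD11b+ F4/80+ cells without CD8, Ly6C or Ly6G on their surface, and polyadenylated RNA was sequenced. The labels do not give the age of the mice or say that every sample came from a separate mouse, so the p-values measure the spread between these samples, which may be partly technical.

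NF-kappaB is a family of dimeric transcription factors that inhibitors of the IkappaB type hold in the cytoplasm. Receptors for TNF and for microbial products activate IkappaB kinases, the inhibitor is degraded, and the freed dimers switch on inflammatory genes. In macrophages Tnf, Nfkbia, Tnfaip3 and several subunit genes are themselves NF-kappaB targets, so the system contains both positive and negative feedback.

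Recovered fragments ranged from 11147870 to 15740700 per library, with means of 12744917 in vehicle and 14617559 in JHU083, so treated libraries were deeper on average. The ribosomal RNA locus Rn18s-rs5 was listed at 0 in 3 vehicle and 2 JHU083 libraries and held 2.38% to 4.64% of fragments in the other 5, so results are also given within these libraries. Mitochondrial genes held 1.53% to 2.09% of fragments in vehicle and 2.14% to 2.44% in JHU083, with no overlap, and the part of this difference in the results was not tested. All 12 macrophage markers examined were detected, at a summed 21165 to 26630 CPM (fragments scaled to a common library size) in vehicle and 26539 to 34403 in JHU083, and 4 of them were higher in JHU083. All 10 tumour epithelial markers were lower in JHU083, with a summed level of 305 to 666 CPM in vehicle and 105 to 223 in JHU083, and 5 of 8 stromal and endothelial markers were lower too (216 to 328 against 83.9 to 138 CPM). Neutrophil markers summed to 41.8 to 55.5 CPM in vehicle and 16.1 to 71.2 in JHU083, with 2 of the 5 tested lower. T and NK cell markers summed to 20.9 to 24.5 CPM in vehicle and 30.6 to 49.1 in JHU083. The rise lay with Cd4, which alone averaged 14.7 CPM in vehicle and 31.8 in JHU083 and was the 1 higher call of 4 tested. The other 3 had no call. Of 6 tested eosinophil and mast cell markers (mean summed level 15.1 against 19.4 CPM) Siglecf and Cpa3 were higher and Mcpt4 lower. B cell markers (2.72 to 3.77 against 3.47 to 5.14 CPM) had 1 gene tested, which was higher, and dendritic cell markers (10.9 to 16.3 against 9.32 to 19.6 CPM) had 0 calls among 5 by edgeR. Of the 5 genes for antigens excluded by the gate, 4 were too low to test and Ly6c1 was lower (-2.54 on the log2 scale, adjusted p = 6.88e-05). The gate list summed to 2.49 to 3.66 CPM in vehicle and 0.411 to 2.29 in JHU083. No marker in these lists was at 0 in every sample, and the part of other cells in the results below was not tested.

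The 10 transcripts did not move as a block. Tnf and Rel were higher in JHU083, Nfkbie and Nfkb2 were lower, and Tnfaip3, Nfkbia, Nfkbiz, Nfkb1, Rela and Relb did not pass the test. The call is an adjusted p under 0.05 in edgeR's quasi-likelihood test, with Benjamini-Hochberg adjustment over all 12501 loci tested. The 4 calls are 40% of the members, beside 36.7% of all loci tested. Higher calls made up 18.4% of all loci and lower calls 18.3%. The share of members called was thus close to that of the whole table, and their median log2 fold change was 0.011, as it was over all loci. Groups did not overlap for 1 of 10 members, beside 22.3% of all loci. In bulk RNA, fewer cells that express a gene and less of its RNA per cell cannot be told apart.

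**Figure D1:**
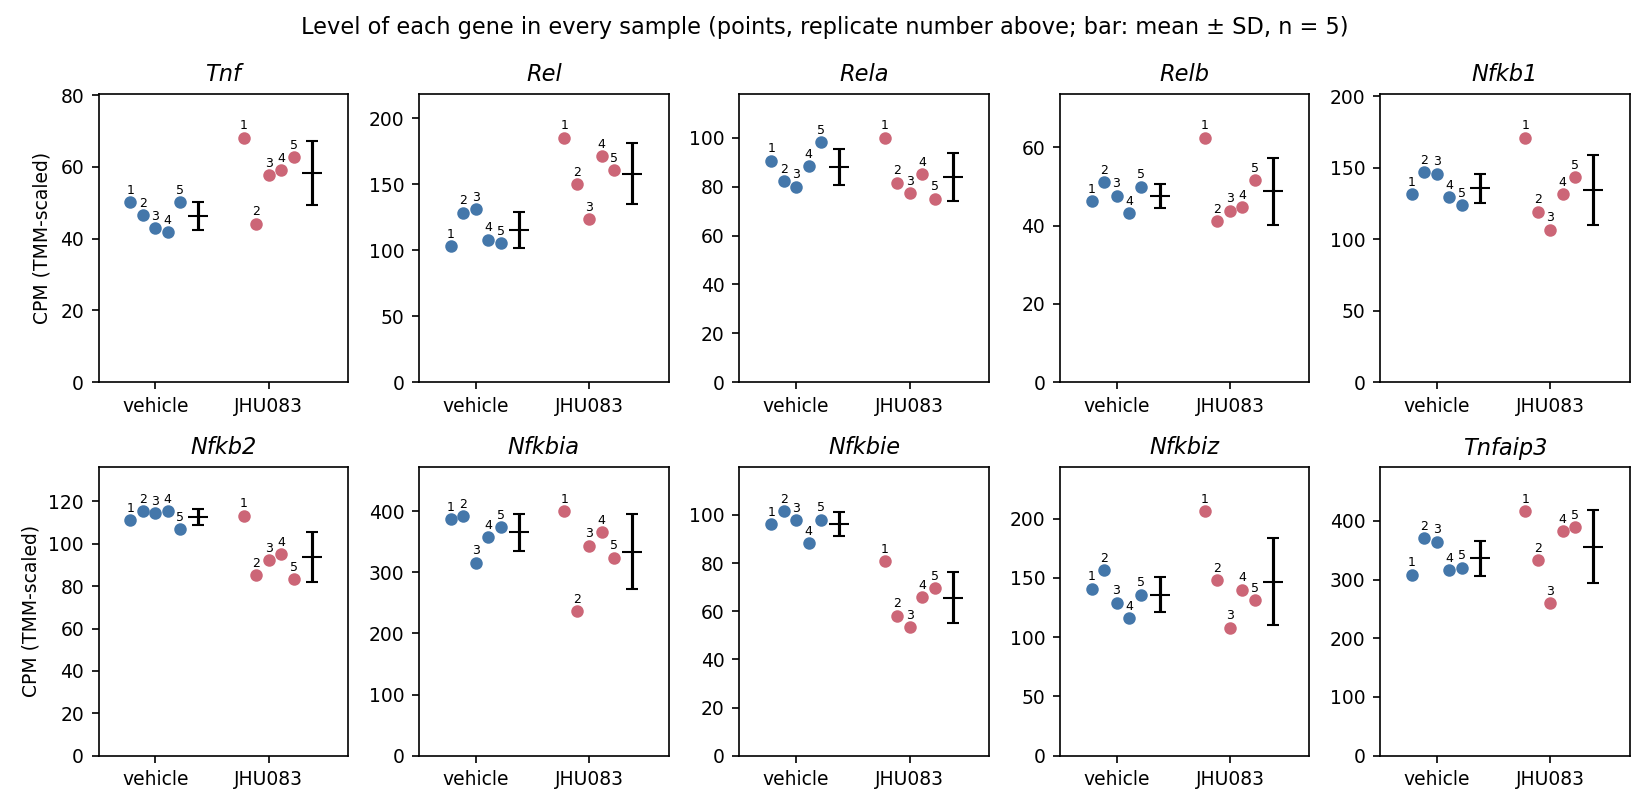
Level of each transcript in CPM (vertical axes, each from 0) in the 5 vehicle (blue) and 5 JHU083 (red) samples, with the replicate number above each point and the mean ± SD (n = 5) as a bar. Only for Nfkbie do all JHU083 samples lie below all vehicle samples, and JHU083 replicate 1 is the highest of its group in every panel.

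Promoter windows from RefSeq (build GRCm38.p6, 250 bases before to 50 after an annotated start) were held for 7 of the 10 genes, in 10 windows. The 4 shown belong to the genes that passed the test, Nfkb2 by the first of its 3 windows, and are written 5′ to 3′ on the gene's strand. Capitals mark every match, on either strand, to the kappaB consensus, the pattern that NF-kappaB dimers are known to bind.
Tnf, chr17:35201958-35202257, minus strand: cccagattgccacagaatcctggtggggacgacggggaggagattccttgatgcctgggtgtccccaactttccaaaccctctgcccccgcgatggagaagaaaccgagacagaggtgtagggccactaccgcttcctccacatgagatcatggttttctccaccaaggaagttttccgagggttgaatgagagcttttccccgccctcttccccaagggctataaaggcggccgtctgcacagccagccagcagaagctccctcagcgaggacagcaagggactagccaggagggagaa
Rel, chr11:23770920-23771219, minus strand: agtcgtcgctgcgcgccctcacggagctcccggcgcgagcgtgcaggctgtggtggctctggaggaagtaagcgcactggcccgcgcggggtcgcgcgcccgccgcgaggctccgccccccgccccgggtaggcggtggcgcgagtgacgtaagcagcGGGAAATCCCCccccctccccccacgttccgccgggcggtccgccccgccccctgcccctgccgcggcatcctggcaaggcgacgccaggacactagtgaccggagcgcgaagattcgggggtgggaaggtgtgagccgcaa
Nfkbie, chr17:45555450-45555749, plus strand: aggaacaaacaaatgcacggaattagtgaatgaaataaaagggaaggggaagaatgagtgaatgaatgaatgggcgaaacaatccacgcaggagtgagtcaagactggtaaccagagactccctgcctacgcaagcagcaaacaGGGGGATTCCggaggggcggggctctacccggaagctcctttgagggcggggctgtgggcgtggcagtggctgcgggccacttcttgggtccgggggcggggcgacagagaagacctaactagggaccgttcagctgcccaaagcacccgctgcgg
Nfkb2, chr19:46304487-46304786, plus strand: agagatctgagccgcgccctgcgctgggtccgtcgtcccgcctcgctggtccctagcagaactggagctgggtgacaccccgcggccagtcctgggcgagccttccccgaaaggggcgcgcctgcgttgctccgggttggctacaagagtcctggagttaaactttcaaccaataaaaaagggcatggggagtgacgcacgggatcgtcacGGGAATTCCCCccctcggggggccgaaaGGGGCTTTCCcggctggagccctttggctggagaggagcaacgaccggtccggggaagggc
The Rel window held matches that begin 92 and 91 bases before the start site, and the Nfkbie window held 1 match that begins 106 bases before it. In the Nfkb2 window overlapping matches began 39 and 38 bases before the start, and another began 11 bases before it. Nfkbia and Tnfaip3 also had matching windows, so the consensus occurred in 5 of 7 genes, while the Tnf and Rela windows held none. In the RefSeq table as a whole, 9.55% of 27025 genes had a window with the consensus, and 8.46% of 32851 windows of the same length held it. Nfkb2 has 3 windows with a match, of which the downstream pair overlap and share 1 site. Genes with matches were found among those that rose (Rel), those that fell (Nfkbie and Nfkb2) and those that did not pass (Nfkbia and Tnfaip3). A match describes letters in a window and not a bound site.

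Tnf encodes the ligand of the pathway, a cytokine that activated macrophages release (chr17:35199381-35202007, minus strand, GRCm38, GENCODE M21). In vehicle samples 1 to 5 its level was 50.3, 46.6, 42.8, 41.8 and 50.1 CPM. In JHU083 samples 1 to 5 it was 68.2, 44.1, 57.6, 59.1 and 62.7 CPM. JHU083 sample 2 lay inside the vehicle range, and the other JHU083 samples lay above every vehicle sample. The means were 46.3 ± 3.95 CPM in vehicle and 58.4 ± 8.93 in JHU083 (SD, n = 5 each), so that the JHU083 level was 1.26 times that of vehicle (log2 fold change 0.33, SE 0.11, adjusted p = 0.0264). An exact two-sided permutation test of the samples gave p = 0.0317. The call was lost with library-size scaling (0.25, adjusted p = 0.0745) and without vehicle sample 3 or 4 or JHU083 sample 1, 4 or 5, with the lowest log2 fold change at 0.27 (adjusted p = 0.069) without JHU083 sample 1. Within libraries that list Rn18s-rs5 at 0 the log2 fold change was 0.45 (adjusted p = 0.0736), and within the others 0.24 (adjusted p = 0.301).

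Rel encodes c-Rel, a subunit with a transactivation domain that is abundant in blood and immune cells (chr11:23736847-23770970, minus strand). Its vehicle levels in samples 1 to 5 were 103, 129, 131, 108 and 105 CPM. The JHU083 levels were 186, 150.0, 124, 171 and 161 CPM. JHU083 sample 3 fell below vehicle samples 2 and 3, and every other JHU083 sample exceeded all vehicle samples. Mean levels were 115 ± 13.6 CPM in vehicle and 158 ± 23.4 in JHU083 (SD, n = 5 each), and the log2 fold change was 0.46 with an SE of 0.11 (adjusted p = 0.00493; exact two-sided permutation p = 0.0238). Rel stayed past the threshold without any 1 of the 10 samples (0.39 to 0.54). The log2 fold change was 0.44 both in libraries with Rn18s-rs5 at 0 (adjusted p = 0.154) and in those above 0 (adjusted p = 0.0353).

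The other 2 subunits with a transactivation domain did not pass. Rela encodes p65, the partner in the classical heterodimer, and ranged from 80.0 to 98.4 CPM in vehicle and from 75.2 to 100.2 in JHU083. Its log2 fold change was -0.07 (95% interval -0.24 to 0.11, adjusted p = 0.576). Relb, the subunit of the non-canonical pathway, ranged from 43.3 to 51.0 CPM in vehicle and from 41.1 to 62.5 in JHU083. Its log2 fold change was 0.03 (95% interval -0.18 to 0.25, adjusted p = 0.833), and it was -0.05 with library-size scaling. These intervals lie below the Rel estimate of 0.46, but the 95% interval of Rel was 0.24 to 0.67 and meets that of Relb. All these intervals assume a normal distribution and may be too narrow with so few samples. The members were compared with each other only through the ratios given further on.

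Nfkb1 and Nfkb2 encode the precursors p105 and p100, which are processed to p50 and p52 and in their long form act as inhibitors themselves. Nfkb2 lies at chr19:46304320-46312385 on the plus strand, where Psd and AC114539.1 overlap it on the other strand. The library protocol in the labels does not state that strand was kept, so reads of these genes may not be separable. Nfkb2 levels in vehicle samples 1 to 5 were 111, 115, 115, 115 and 107 CPM. In JHU083 they were 113, 85.1, 92.4, 95.1 and 83.4 CPM. JHU083 sample 1 stood inside the narrow vehicle range, and the other JHU083 samples were below all of it. The means were 113 ± 3.60 CPM in vehicle and 93.8 ± 11.9 in JHU083 (SD, n = 5 each), and the log2 fold change was -0.26 with an SE of 0.08 (adjusted p = 0.0244; exact two-sided permutation p = 0.0238). The call was lost without vehicle sample 2 or 4 or JHU083 sample 2 or 5, where the smallest change was -0.22 (adjusted p = 0.0703) without JHU083 sample 5. It was also lost with the sample number taken as a block (-0.27, adjusted p = 0.0535). Within libraries listing Rn18s-rs5 at 0 the change was -0.13 (adjusted p = 0.583), and within the others -0.37 (adjusted p = 0.0402).

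Nfkb1 (chr3:135584655-135691547, minus strand, overlapping Gm43430 on the same strand) ranged from 123.9 to 147.1 CPM in vehicle and from 106.8 to 171.2 in JHU083. Its log2 fold change was -0.011 (95% interval -0.23 to 0.21, adjusted p = 0.946). The JHU083 samples enclosed the whole vehicle range, with sample 1 above it and samples 2 and 3 below it.

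Nfkbie encodes IkappaB-epsilon, an inhibitor known to hold dimers that contain Rel or Rela (chr17:45555703-45563169, plus strand). In vehicle samples 1 to 5 its level was 96.2, 102, 97.8, 88.2 and 98.1 CPM. In JHU083 samples 1 to 5 it was 80.8, 58.1, 53.5, 65.9 and 69.6 CPM. Every JHU083 sample was below the lowest vehicle sample. The means were 96.4 ± 4.98 CPM in vehicle and 65.6 ± 10.6 in JHU083 (SD, n = 5 each), which is a level of 0.681 times that of vehicle with a log2 fold change of -0.56 and an SE of 0.10 (adjusted p = 0.000817). The exact two-sided permutation test gave p = 0.0079, the smallest that 5 against 5 samples allow. Nfkbie kept its call without any 1 of the 10 samples (-0.64 to -0.49). Within libraries listing Rn18s-rs5 at 0 the change was -0.51 (adjusted p = 0.102), and within the others -0.60 (adjusted p = 0.00587).

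The other inhibitors did not pass. Nfkbia encodes IkappaB-alpha, the classical and rapidly resynthesised inhibitor, and ranged from 315.8 to 392.1 CPM in vehicle and from 236.1 to 400.3 in JHU083. Its log2 fold change was -0.13 (95% interval -0.36 to 0.10, adjusted p = 0.404). Nfkbiz encodes IkappaB-zeta, a nuclear member that is known to help induce secondary response genes, and ranged from 116.3 to 156.5 CPM in vehicle and from 108.0 to 206.4 in JHU083. Its log2 fold change was 0.11 (95% interval -0.16 to 0.39, adjusted p = 0.552), and without JHU083 sample 1 it was -0.04. Tnfaip3 encodes A20, a ubiquitin-editing enzyme that shuts off signalling from the TNF receptor, and ranged from 308.7 to 370.4 CPM in vehicle and from 260.0 to 416.9 in JHU083. Its log2 fold change was 0.08 (95% interval -0.13 to 0.30, adjusted p = 0.581).

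**Figure D2:**
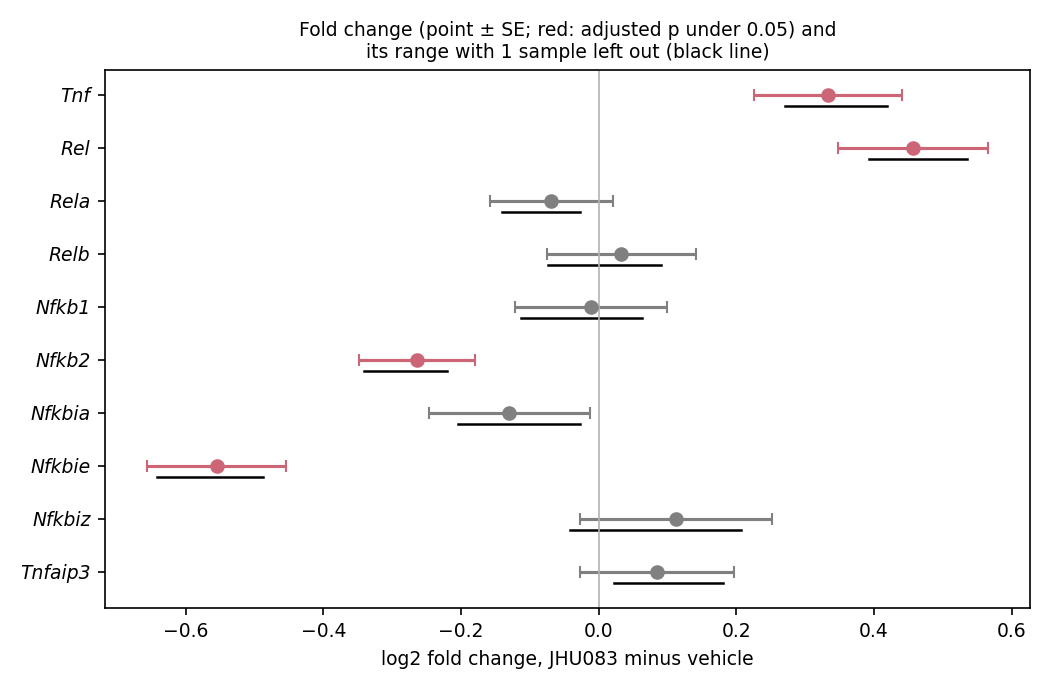
Log2 fold change of JHU083 over vehicle for each transcript (point ± SE; red where the adjusted p is under 0.05) with the range of the estimate when 1 sample is left out (black line under each point). The ranges for Relb, Nfkb1 and Nfkbiz cross 0, and those of the other 7 lie on 1 side of it.

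Levels were compared between genes only per transcript length, with the deposited FPKM (fragments scaled to transcript length and library size). Nfkbia was the most abundant in both groups, at 246 ± 20.4 FPKM (SD, n = 5) in vehicle and 226 ± 41.5 in JHU083. Tnfaip3 followed with 75.7 ± 8.02 and 80.9 ± 14.5. The 2 feedback inhibitors were above every other member in every sample of their group. Rel was the least abundant, at 14.6 ± 1.78 FPKM in vehicle and 20.1 ± 3.02 in JHU083.

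In vehicle, Nfkb1 (48.5 FPKM), Nfkbie (40.1), Nfkbiz (36.5), Nfkb2 (36.4), Rela (32.3), Tnf (29.9), Relb (22.7) and Rel (14.6) followed in that order. From Nfkbie to Tnf each neighbour's samples overlapped the next, so their order is not separated by the spread. Relb lay apart from Tnf above it and from Rel below it. In JHU083 Nfkbie was the eighth (27.4 ± 4.52 FPKM) after being the fourth, and Tnf was the fifth (37.8 ± 5.80) after being the eighth. In JHU083 all neighbours below Tnfaip3 overlapped. The order depends on the length assumed, since with the summed exon length of GENCODE M21 Nfkb1 was the lowest of the 10 at 11.2 on that scale.

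Because the pathway works by the balance of subunits and inhibitors, the ratio of fragments of each pair of members was also compared within libraries, where scaling and gene length cancel out of the difference. These comparisons were chosen after the fold changes were seen and restate them without a scaling step. Over the 45 pairs, 15 had groups that did not overlap and 19 had an adjusted p under 0.05 (exact two-sided permutation over 252 splits, adjusted over the 45 pairs, smallest possible p 0.0079). Many of these pairs share Nfkbie or Rel, so they are not independent.

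The ratio of Nfkbie to Nfkb1 was the most uniform in JHU083. It was 0.731, 0.691, 0.670, 0.683 and 0.792 in vehicle samples 1 to 5 and 0.472, 0.487, 0.501, 0.501 and 0.485 in JHU083 samples 1 to 5. The groups were far apart although Nfkb1 and Nfkbie each varied in JHU083, and the log2 difference was -0.54 (exact permutation p = 0.0079, adjusted p = 0.0238). Nfkbie to Rel, an inhibitor and a subunit it is known to bind, differed by -1.02 on the log2 scale (p = 0.0079, adjusted p = 0.0238, exact permutation), the widest gap of all pairs. Nfkbie to Nfkbia, the ratio of the 2 cytoplasmic inhibitors, was lower in JHU083, and Nfkbia to Nfkbie rose by 0.42 (p = 0.0079, adjusted p = 0.0238, exact permutation). The groups only just missed overlap. The lowest vehicle ratio of Nfkbie to Nfkbia was 0.2467 in sample 4, and the highest JHU083 ratio was 0.2462 in sample 2.

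Among subunits, the ratio of Rel to Rela was 1.14, 1.56, 1.64, 1.22 and 1.07 in vehicle samples 1 to 5 and 1.85, 1.84, 1.60, 2.01 and 2.14 in JHU083. JHU083 sample 3 lay below vehicle sample 3, and the log2 difference was 0.52 (exact permutation p = 0.0159, adjusted p = 0.0376). Nfkb2 to Rel differed by -0.72 with no overlap (p = 0.0079, adjusted p = 0.0238, exact permutation). Nfkb1 to Nfkb2 differed by 0.25 and did not pass (exact permutation p = 0.0556, adjusted p = 0.0962).

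For the ligand, the ratio of Tnf to Nfkbia was 0.130, 0.119, 0.136, 0.117 and 0.134 in vehicle samples 1 to 5 and 0.170, 0.187, 0.168, 0.162 and 0.194 in JHU083. Here JHU083 sample 2, which had a low Tnf level, also had a low Nfkbia level, and the groups did not overlap (log2 difference 0.47, exact permutation p = 0.0079, adjusted p = 0.0238). Without any 1 sample this difference stayed between 0.43 and 0.50. Tnf to Nfkbie differed by 0.89 and Tnfaip3 to Rel by -0.38, each without overlap. Tnf to Rel differed by -0.13 and did not pass (exact permutation p = 0.444, adjusted p = 0.522).

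**Figure D3:**
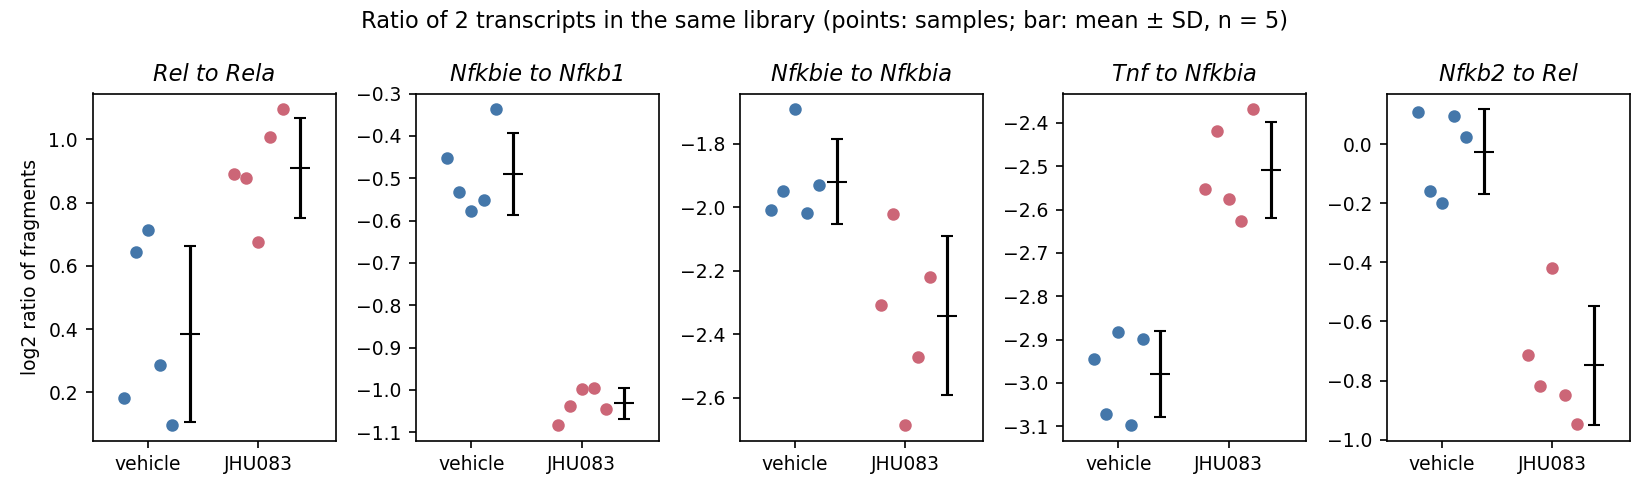
Log2 ratio of fragments of 2 transcripts in the same library (vertical axes, each with its own scale) for 5 vehicle (blue) and 5 JHU083 (red) samples, replicates 1 to 5 from left to right, with mean ± SD (n = 5). Groups overlap for Rel to Rela and are apart for the other 4 pairs, most narrowly for Nfkbie to Nfkbia.

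The members also varied together within groups. After group means were subtracted, Pearson's r of log2 CPM over the 10 samples was above 0 in all 45 pairs, from 0.14 to 0.95 with a median of 0.59. Pairs of other loci were not counted, so this is not shown to be particular to the members. By permutation within groups, 6 pairs had an adjusted p under 0.05 for r, and 5 of them also for Spearman's rho. Tnfaip3 and Rel were the closest pair (r = 0.95, permutation p = 0.0011, adjusted p = 0.0331; rho = 0.88, permutation p = 0.0027, adjusted p = 0.0406), with r = 0.91 when the 2 samples farthest from the median of Tnfaip3 were left out. For Nfkbie and Relb the test gave r = 0.90 (permutation p = 0.0037, adjusted p = 0.0331) and rho = 0.94 (permutation p = 0.000486, adjusted p = 0.0219), and r = 0.90 without the 2 farthest samples. Tnf was closest to Nfkbia (r = 0.88, permutation p = 0.0104, adjusted p = 0.067; rho = 0.71, permutation p = 0.0383, adjusted p = 0.157) and did not pass. That r fell to 0.52 without the 2 farthest samples.

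Much of the shared variation lay with 1 library. JHU083 sample 1 was the highest of its group for all 10 members, while it was the highest at 16.2% of all loci tested and at 17.0% of the 3802 loci with a level at least that of the lowest member. Without it, r was above 0 in 28 of 45 pairs, the median r was 0.16, and 0 pairs had an adjusted p under 0.05. The number of pairs that passed was 6 without vehicle sample 5, 1 without JHU083 sample 3 and 0 without any of the other 8 samples. Besides JHU083 sample 1, the omissions that left 0 pairs kept r above 0 in 45 of 45 pairs, with a median r of 0.596 to 0.637 and a highest r of 0.951 to 0.975, near the values over all samples (0.595 and 0.953). JHU083 sample 3 was the lowest of its group for 5 members and JHU083 sample 2 for 3, while they were the lowest at 31.6% and 22.3% of all loci and at 28.1% and 34.5% of those 3802. In vehicle, sample 2 was highest for 6 members, and it was highest at 15.7% of all loci and 6.65% of the 3802. Vehicle sample 4 was lowest for 4 members, and it was lowest at 16% of all loci and 13.0% of the 3802.

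**Figure D4:**
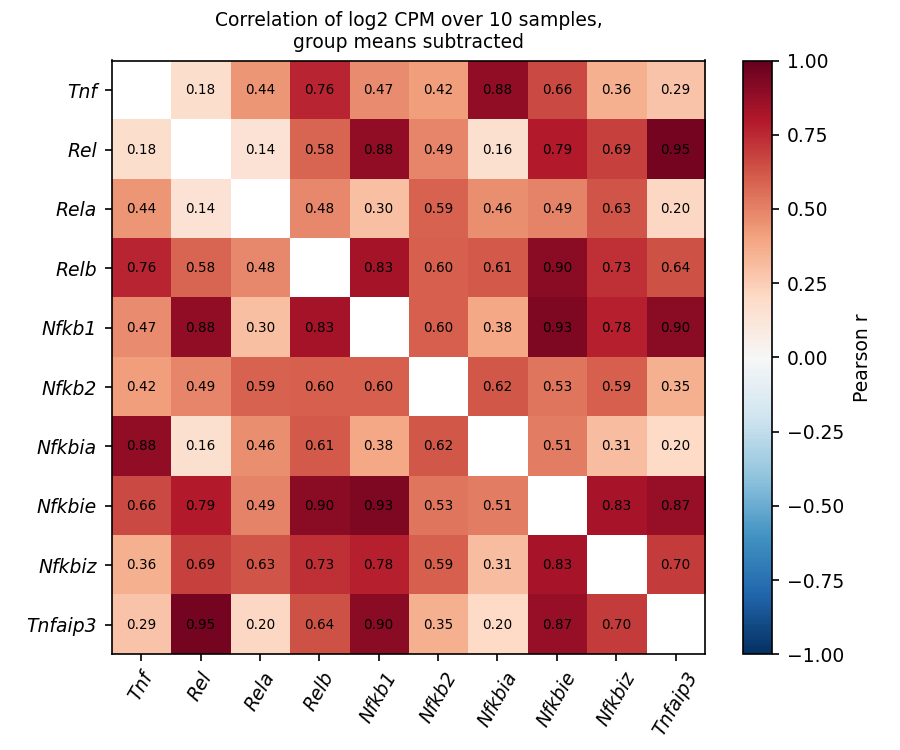
Pearson r of log2 CPM for each pair of transcripts over 10 samples after group means were subtracted (colour and printed value). All values lie between 0.14 and 0.95. With JHU083 replicate 1 left out, 28 of the 45 pairs stay above 0.

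Immediate early genes, which are induced within minutes of activation or tissue handling, and heat shock genes were taken as 1 list of 22, of which 14 were higher and 1 lower in JHU083, which is 63.6% and 4.55% beside 18.4% and 18.3% of all loci. In libraries with Rn18s-rs5 at 0 the higher count was 7, where over all loci it fell from 2296 to 532. All 14 higher calls were among the 18 immediate early genes, such as Klf4 (1.45 ± 0.18, adjusted p = 4.74e-05), Dusp1 (0.81 ± 0.09, adjusted p = 1.58e-05), Egr2 (0.65 ± 0.09, adjusted p = 0.000112) and Fos (0.59 ± 0.09, adjusted p = 0.000154) on the log2 scale. Of the 4 heat shock genes none was higher and Dnajb1, a co-chaperone, was lower (-0.64 ± 0.09, adjusted p = 0.000131). The summed level of the 18 immediate early genes was 5678, 6261, 6197, 6274 and 6107 CPM in vehicle samples 1 to 5 and 7951, 8446, 7856, 9397 and 7792 CPM in JHU083. Every JHU083 sample was above every vehicle sample, with sample 4 the highest and sample 5 the lowest of its group, which is not the order of the members. The summed level of the 4 heat shock genes was 13939, 14793, 16816, 15641 and 15408 CPM in vehicle and 22295, 18612, 14412, 15958 and 18063 CPM in JHU083, and the groups overlapped. It was highest in JHU083 sample 1 and, within that group, lowest in sample 3, the samples in which the members were most often highest and lowest. The heat shock genes were separated from the list after the data were seen, and the part of either group in the Tnf and Rel results was not tested.

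The loci most like Tnf across the 10 samples, after group means were subtracted, were Ptges3 (r = 0.97), H2-Eb1 (0.96), Srf (0.95), Anp32e (0.94) and Cd14 (0.94), out of 10039 loci with an average log2 CPM of at least 2. These are descriptions with no test. No other member was among the 5.

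The remaining pathway genes were described by list. Of 10 other IkappaB proteins and kinases, 3 were higher and 0 lower in JHU083, which is 30% and 0% of the list (median log2 fold change 0.12, beside 0.011 for all loci). The risen genes were Map3k8 (0.67 ± 0.09, adjusted p = 0.000102), the kinase TPL-2 that p105 binds, Tbk1 (0.41 ± 0.09, adjusted p = 0.0032) and Ikbkg (0.27 ± 0.08, adjusted p = 0.0161), the NEMO subunit of the IkappaB kinase. The Ikbkg call was lost with library-size scaling (0.18, adjusted p = 0.0774) and with no filter (0.26, adjusted p = 0.0701). It was also lost within libraries with Rn18s-rs5 at 0 (0.20, adjusted p = 0.429) or above 0 (0.31, adjusted p = 0.0928). Tbk1 lost its call in libraries with Rn18s-rs5 at 0 (0.23, adjusted p = 0.283), where 1 gene of the list was higher. With library-size scaling 1 gene of the list was lower, and over all loci that scaling gave more lower calls too. The catalytic subunits Chuk (0.21, adjusted p = 0.0703) and Ikbkb (0.03, adjusted p = 0.769) did not pass, though Chuk passed without JHU083 sample 3 (0.27, adjusted p = 0.00657). Neither did the inhibitors Nfkbib (-0.04, adjusted p = 0.854), Nfkbid (0.24, adjusted p = 0.276) and Bcl3 (-0.12, adjusted p = 0.412). Nfkbie was thus the sole IkappaB gene measured here with a lower call, apart from Nfkb2, whose long form p100 also acts as an inhibitor.

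Of 21 genes of the TNF receptor complex, 6 were higher and 3 lower, which is 28.6% and 14.3% beside 18.4% and 18.3% of all loci (median log2 fold change 0.16). The higher count was 10 without JHU083 sample 3, 11 with voom quality weights and 0 in libraries with Rn18s-rs5 at 0, where the lower count was 0 as well. Over all loci the higher count moved too, from 2296 to 532 in those libraries and to at most 2895 with 1 sample left out. The 2 receptors differed in their calls. Tnfrsf1a, the widely expressed receptor with a death domain, had 160 ± 9.13 CPM (SD, n = 5) in vehicle and 160 ± 10.9 in JHU083 (log2 fold change -0.0031, adjusted p = 0.976). Tnfrsf1b, the receptor enriched on immune cells, had 237 ± 9.42 and 314 ± 34.1 CPM (0.41 ± 0.08, adjusted p = 0.00111) with no overlap. In libraries with Rn18s-rs5 at 0 it did not pass (0.46, adjusted p = 0.0616). The difference between the receptors was not tested. Traf5 (0.60, adjusted p = 0.000249, at a locus shared with Mir3473c) and Tab2 (0.52, adjusted p = 0.000705), adaptors downstream of these receptors, were also higher. The 3 lower genes were Traf1 (-0.74, adjusted p = 0.00219, with no overlap), Tradd (-0.36, adjusted p = 0.0181) and Rbck1 (-0.33, adjusted p = 0.0132).

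Among 10 partners of A20 and deubiquitinases, 3 were higher and 2 lower, shares of 30% and 20% beside the same 18.4% and 18.3% (median 0.17). In libraries with Rn18s-rs5 at 0, 1 was higher and 1 lower, and Itch lost its call there (0.43, adjusted p = 0.0837). Tnip2 (0.65 ± 0.08, adjusted p = 2.61e-05), an A20-binding protein, and Itch (0.54 ± 0.10, adjusted p = 0.000868), a ubiquitin ligase that works with A20, rose, while Usp18 (-0.62 ± 0.11, adjusted p = 0.000759), an interferon-induced protease, fell. Tnip1 (-0.09, adjusted p = 0.478), Tnip3 (0.37, adjusted p = 0.126) and Cyld (-0.08, adjusted p = 0.42) did not pass, nor did Tnfaip3 itself, though Tnip3 passed without JHU083 sample 2 (0.49, adjusted p = 0.0339).

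Other ligands of the TNF superfamily moved in both directions. Of 16 genes 7 were too low to test, 4 were higher and 3 lower, or 44.4% and 33.3% of those tested, beside 18.4% and 18.3% of all loci. The 3 lower genes were Tnfsf13b (-0.815, adjusted p = 0.00146), Ltb (-0.72, adjusted p = 0.00175) and Tnfsf9 (-0.54, adjusted p = 0.0199), each with no overlap. In libraries with Rn18s-rs5 at 0 the counts of higher and lower genes were 3 and 1. The highest change among the genes tested was in Tnfsf18, the ligand of GITR, from 1.63 ± 0.54 to 7.61 ± 1.78 CPM (SD, n = 5; log2 fold change 2.20 ± 0.23, adjusted p = 1.49e-05). Tnfsf12 and Tnfsf13 share 1 locus (0.51, adjusted p = 0.00109) and count as 2 of the 4, so that 3 of 8 loci were higher and 3 lower. The median was 0.20 over genes and -0.16 with that locus counted only 1 time. Of 22 superfamily receptors 15 were tested, with 1 higher (Tnfrsf13b, 0.25, adjusted p = 0.0329, lost without 6 of the 10 samples in turn) and 2 lower (Tnfrsf10b, -1.67, adjusted p = 0.000136, and Tnfrsf14, -0.46, adjusted p = 0.00493). These are 6.67% and 13.3% of the receptors tested. Tnfrsf14 did not pass within libraries with Rn18s-rs5 at 0 (-0.41, adjusted p = 0.171) or above 0 (-0.51, adjusted p = 0.0745). Tnfrsf10b did not pass in those at 0 (-1.54, adjusted p = 0.0512), so that no receptor was called lower there.

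Genes that control Tnf messenger RNA or the release of the protein gave 2 higher and 2 lower calls among 14 tested, 14.3% each way (median 0.17), and 1 and 1 in libraries with Rn18s-rs5 at 0, where Elavl1 did not pass (-0.35, adjusted p = 0.095). The count of higher genes was not stable, at 1 under most alternatives, 5 without vehicle sample 3 and 8 without JHU083 sample 3. Dusp1, a phosphatase that damps p38 signalling, rose. Elavl1 (-0.37 ± 0.06, adjusted p = 0.000477), an RNA-stabilising protein, and Rhbdf2 (-0.53 ± 0.08, adjusted p = 0.000139), the iRhom2 partner of the TNF-releasing protease ADAM17, fell. Adam17 (0.23, adjusted p = 0.0912) and Zfp36 (0.18, adjusted p = 0.125), which encodes the Tnf-destabilising protein tristetraprolin, did not pass, though both passed without JHU083 sample 3 (0.30, adjusted p = 0.0131, and 0.24, adjusted p = 0.0114) and Adam17 also without vehicle sample 3.

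Known NF-kappaB target genes gave 8 higher and 9 lower calls among 35 tested, which is 22.9% and 25.7% beside 18.4% and 18.3% of all loci, and a median of -0.07. With library-size scaling the calls were 5 higher and 11 lower. Over all loci that scaling also gave fewer higher calls and more lower calls, so this shift was not particular to the list. In libraries with Rn18s-rs5 at 0 the calls of the list were 5 and 3. Over all loci the higher calls fell there from 2296 to 532 and the lower calls from 2293 to 586. Cd83, a maturation marker, rose (1.17 ± 0.09, adjusted p = 2.28e-06). Nos2, the inducible nitric oxide synthase, fell (-1.68 ± 0.16, adjusted p = 6.34e-06), as did Irf1, a transcription factor shared with interferon signalling (-0.93 ± 0.10, adjusted p = 1.58e-05). Il1b stood at 1606 ± 181 CPM in vehicle and 1535 ± 334 in JHU083 (-0.07, adjusted p = 0.741).

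**Figure D5:**
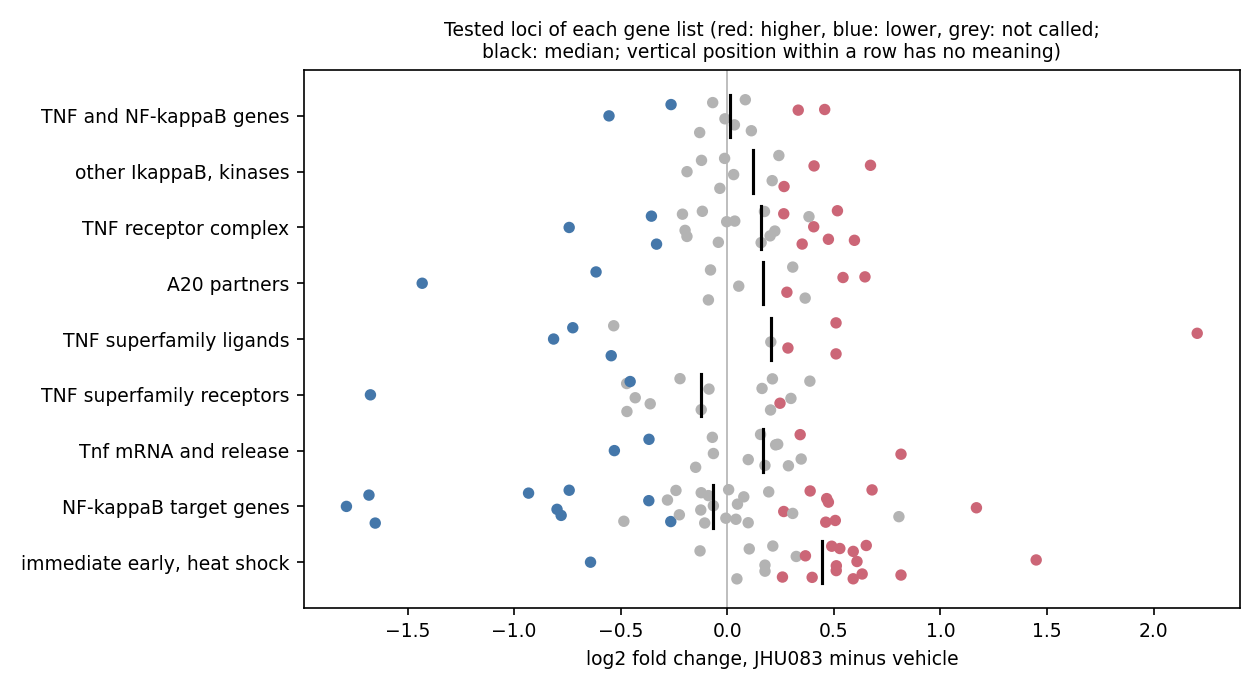
Log2 fold change of JHU083 over vehicle (horizontal axis) for each tested gene of the lists (red higher, blue lower, grey not called; black bar, median; genes at a shared locus each have a point). In the bottom row 14 of 22 genes are higher, and NF-kappaB target genes spread to both sides, with 8 higher and 9 lower.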

How the data were processed

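Poly(A) RNA of 10 sorted macrophage samples was sequenced as paired ends. Per the submitters' processing notes, bcl2fastq 2.17.1.14, FastQC 0.11.2, TopHat2 2.1.1 and GRCm38 were used; the counting program and annotation are not given in the sources used here. A column that the file headers call raw counts holds values that are not whole. The values the authors deposited there have the form of neither raw nor expected counts, but of whole counts scaled per sample, since they are multiples of a sample-specific step (0.888 to 1.17). Division by the step gave whole numbers (within 0.1) for at least 99.9% of positive values, and the rounded fragments were tested. This scaling is inferred from the values. The other column deposited by the authors was taken as FPKM and used for levels between genes.

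Loci were filtered with filterByExpr, TMM-scaled and tested with edgeR 4.0.16 (quasi-likelihood, R 4.3.3) without covariates, with Benjamini-Hochberg adjustment over 12501 loci and a threshold of 0.05. Adjusted p-values of log2 fold changes come from that test unless the sentence names another setting. On simulated data the test missed most changes of 0.5 on the log2 scale, and its share of false calls was somewhat above the threshold. A gene that did not pass may therefore still have changed. The SE is the absolute log2 fold change divided by the square root of F, and log2 CPM used a prior count of 2. Exact and permutation tests used Python 3.11.15 and scipy 1.17.1. The alternatives tried included limma-voom from limma 3.58.1, DESeq2 1.42.0, other scalings and filters, subsets of libraries, a replicate block and leaving out each sample. The members and lists were chosen with earlier results of these data known. Every member was named, and from each list the 3 genes with the smallest adjusted p past the threshold plus a fixed panel. The lower genes of the receptor complex and ligand lists were named as well. No strand information was used. Positions come from GENCODE M21 (GRCm38).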

Additional observations from a re-analysis of the deposited data

How the results depend on the processing

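Across scalings, tools (DESeq2 and limma-voom), filters and subsets of libraries, Tnf, Rel, Nfkbie and Nfkb2 kept their direction throughout. With library-size scaling 1 member was higher, since Tnf missed the threshold (0.25). In the 5 libraries with Rn18s-rs5 at 0, where 532 loci were higher and 586 lower, 0 members were called in either direction by edgeR. Tnf was at 0.45, Rel at 0.44, Nfkbie at -0.51 and Nfkb2 at -0.13. The pathway lists together, with the immediate early and heat shock list counted among them, gave 16 higher and 7 lower calls there, beside 37 and 21 over all libraries. In the 5 libraries above 0, 1274 loci and 1 member were higher, with Tnf at 0.24. Fewer samples were compared in these subsets. Members with values near 0 changed sign: Relb to -0.047 with library-size scaling and in libraries above 0, Nfkb1 to 0.031 with voom quality weights and 0.061 in libraries at 0. Among other genes, Ikbkb (-0.049 with library-size scaling, -0.045 in libraries at 0), Nfkbib (0.0051 with Rn18s-rs5 status as a covariate, 0.23 in libraries at 0), Tnfrsf1a (0.025 with the covariate, 0.033 and 0.0094 within libraries at 0 and above 0), Bcl3 (0.064), Tnip1 (0.053) and Il1b (0.22), the last 3 in libraries at 0, did so too.

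The labels number samples 1 to 5 in both groups, and deviations of same-numbered samples were negatively correlated (mean -0.35). With only 5 such pairs, and deviations that sum to 0 within each group, this cannot settle whether the numbers pair samples. With a replicate block 1 member was lower, since Nfkb2 missed the threshold (-0.27, adjusted p = 0.0535), and the other 3 called members kept their calls. Among other named genes Ikbkg (adjusted p = 0.0617) and Tnfrsf13b lost theirs. With voom quality weights Chuk, Tnip3, Zfp36 and Adam17 passed (0.28, 0.46, 0.21 and 0.29).

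Leaving out each sample in turn gave 1 to 2 members higher and 1 to 2 lower. Log2 fold changes ranged from 0.27 to 0.42 for Tnf and from -0.34 to -0.22 for Nfkb2. Signs changed for Nfkb1 (-0.11 to 0.063), Relb (-0.073 to 0.090), Nfkbiz (-0.042 to 0.21), Nfkbib (-0.14 to 0.054), Tnfrsf1a (-0.044 to 0.023) and Il1b (-0.17 to 0.021). Ratio pairs without overlap numbered 15 to 20, and correlated pairs 0 to 6. Per kilobase of GENCODE exon length, levels were 47.9 for Tnfaip3, 28.2 for Nfkbiz, 11.2 for Nfkb1, 22.6 for Nfkb2, 28.0 for Rela and 12.4 for Relb. The cause of these changes was not tested. Every member had at least 481 fragments in every library.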
